A study of Mus musculus with 24 samples.

Results

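The genes described here are 6 members of the ribonuclease A superfamily in mouse macrophages: the eosinophil-associated ribonuclease genes Ear1, Ear2, Ear3, Ear10 and Ear11, and the nearby gene Rnase4. They are 6 of 23307 distinct gene symbols in each of the deposited tables, and were chosen by symbol, as a family, from expression values measured in these same libraries across IL4 time and genotype. Their differences are therefore given as descriptions with no p, and counts of members past the threshold stand only beside the share of all genes past it. FPKM, the unit of both tables, scales fragments by transcript length and by library, so levels of different genes can be set side by side per length.

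Ribonuclease A enzymes are small secreted proteins that cut RNA. The Ear genes are the rodent relatives of the human eosinophil cationic protein and eosinophil-derived neurotoxin genes, were first studied as products of eosinophil granules, and multiplied by repeated gene duplication. Some of them are also made by macrophages during type 2 immune responses, in which the cytokine IL4 acts through the transcription factor STAT6.

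RNA was sequenced from bone marrow-derived macrophages (BMDM) of strain C57BL/6, grown for 7 days in M-CSF and medium conditioned by L929 cells. Wild-type cells and cells from mice labelled Tet2 knockout, which lack an enzyme that oxidises 5-methylcytosine in DNA, were left untreated or kept with 20 ng/ml IL4 for 10 or 24 h, with 2 biological replicates in each of the 6 groups. The other 8 libraries hold RNA of macrophages from tumours (TAM). CD11b+F4/80+ cells were sorted out of subcutaneous tumours grown from the YUMM1.7 melanoma line, 4 weeks after injection into male C57BL/6J mice aged 6 to 8 weeks. Of these, 4 came from wild-type hosts (LysMcre wt/wt, Tet2 fl/fl) and 4 from labelled knockout hosts (LysMcre +/wt, Tet2 fl/fl). Both host groups carry the floxed Tet2 allele, and LysM-Cre restricts deletion to myeloid cells. TAM libraries are called by the number in their label (wild type 1, 2, 7 and 8, labelled knockout 3, 4, 5 and 6). BMDM libraries were made after removal of ribosomal RNA and TAM libraries from polyadenylated RNA, so levels were compared only within a table. The series also holds 4 libraries of immunoprecipitated 5-hydroxymethylcytosine, which are not analysed here, giving 24 samples in all.

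The promoter sequences are shown because they make plain how alike the Ear genes are around their starts, and because the members differed in when they rose with IL4. Reads come from transcripts, whose sequences were not compared, so these windows do not show how well reads can be told apart. All members found in RefSeq, 5 of 6, lie on chromosome 14. Ear1, Ear10 and Ear2 form 1 stretch, in which the only other protein-coding genes are Ang5 and Ang6. Then 84 protein-coding genes follow before the second stretch, in which Rnase4, Ang, Rnase6, Ang2 and Ear11 (named Rnase2a in RefSeq) lie in that order. Each sequence runs 5′ to 3′ over 300 bases around the RefSeq start of the gene, most of them upstream, on build GRCm38.p6, whereas the expression tables were made on mm9. They are Ear2 at chr14:44102404-44102703 on the plus strand, Ear1 at chr14:43819590-43819889, Ear10 at chr14:43923547-43923846 and Ear11 at chr14:51256063-51256362, all 3 on the minus strand. Ear2 is in lower case throughout, and capitals in the other 3 mark letters that differ from the aligned Ear2 letter or are added to it.
Ear2: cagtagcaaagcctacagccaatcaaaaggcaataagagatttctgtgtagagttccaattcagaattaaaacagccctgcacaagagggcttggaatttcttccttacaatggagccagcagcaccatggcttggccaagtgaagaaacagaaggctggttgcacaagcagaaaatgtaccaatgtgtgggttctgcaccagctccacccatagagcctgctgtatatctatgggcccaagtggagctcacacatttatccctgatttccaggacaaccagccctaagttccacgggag
Ear1: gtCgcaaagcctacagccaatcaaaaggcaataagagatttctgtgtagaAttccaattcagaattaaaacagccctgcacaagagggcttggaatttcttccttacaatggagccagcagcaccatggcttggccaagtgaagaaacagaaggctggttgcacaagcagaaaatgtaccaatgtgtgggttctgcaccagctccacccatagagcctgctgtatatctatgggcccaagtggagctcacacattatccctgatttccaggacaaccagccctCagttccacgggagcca
Ear10: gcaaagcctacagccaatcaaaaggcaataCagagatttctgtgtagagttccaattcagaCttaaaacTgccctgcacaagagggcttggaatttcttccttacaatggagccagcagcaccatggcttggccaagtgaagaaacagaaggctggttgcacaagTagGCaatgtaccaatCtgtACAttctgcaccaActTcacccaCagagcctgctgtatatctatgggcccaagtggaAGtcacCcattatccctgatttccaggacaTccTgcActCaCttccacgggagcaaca
Ear11: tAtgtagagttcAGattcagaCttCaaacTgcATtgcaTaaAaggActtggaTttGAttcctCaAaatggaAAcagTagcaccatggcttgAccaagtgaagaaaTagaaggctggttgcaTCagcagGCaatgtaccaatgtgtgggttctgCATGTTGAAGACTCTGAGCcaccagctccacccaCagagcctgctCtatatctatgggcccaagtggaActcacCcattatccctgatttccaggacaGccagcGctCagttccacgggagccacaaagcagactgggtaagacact

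In the alignment to Ear2, only 4 of 298 columns differed for Ear1 (98.66% identity). For Ear10, 22 of 296 columns differed (92.57% identity). Ear11 was the least alike of the 3, with 52 of 275 columns differing (81.09% identity), 20 of them gap columns, which include the long run of capitals in its printed sequence. The RefSeq table had no entry for Ear3. Rnase4 is not an Ear gene, and its first promoter window aligned to that of Ear2 at only 46.87% identity. That first window (chr14:51090827-51091126, plus strand) is identical in all 300 bases to that of Ang, the angiogenin gene, with which Rnase4 shares its start. The second Rnase4 start has a window of its own at chr14:51095750-51096049 on the plus strand, shown with capitals for 2 motif matches, a PU.1-type match and a C/EBP-type match on the opposite strand.
Rnase4 (second start): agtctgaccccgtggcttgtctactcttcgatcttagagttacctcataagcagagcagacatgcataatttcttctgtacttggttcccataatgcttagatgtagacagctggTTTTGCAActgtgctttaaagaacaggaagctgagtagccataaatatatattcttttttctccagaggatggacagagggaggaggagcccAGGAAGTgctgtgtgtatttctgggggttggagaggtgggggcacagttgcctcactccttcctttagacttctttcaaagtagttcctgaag

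A set of 5 motifs of factors active in macrophages was searched on both strands in these windows and in all 32817 RefSeq mouse promoters of the same length. The C/EBP-type motif TTGCNNAA was found in 10.81% of all promoters. Ear1, Ear2 and Ear10 each held it as TTGCACAA, at positions -92, -90 and -94 from the start. Ear11 held it as TTGCATAA at position -217, outside the stretch in which the other 3 have theirs, and the second Rnase4 window held it at position -135. The PU.1-type motif AGGAAGT, present in 9.355% of all promoters, was found among the members only in the second Rnase4 window, at position -43. The STAT6-type motif (TTC, then 4 bases, then GAA; 6.945% of all promoters), the same with 3 bases between (8.294%) and the AP-1-type motif TGANTCA (7.813%) had no match in any of these windows. The pair with TTC and GAA differ only in the spacing of the same outer letters. These are matches of letters in 300 bases, and enhancers farther away were not searched.

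FPKM holds no read numbers, so the absolute depth is unknown. Total FPKM ranged from 365118 to 557183 among BMDM libraries and from 337994 to 464812 among TAM libraries. Judged by the most common ratio of low values to those of the first library, BMDM libraries had 0.847 to 1.38 times the depth of the first of them, and 7 of the 8 TAM libraries 0.688 to 1.0 times. It could not be set for labelled knockout TAM library 5, in which 11137 genes were at 0, against 8500 to 9294 in the others. Tet2 itself was at 4.11 to 9.82 FPKM in wild-type and 4.02 to 11.3 FPKM in labelled knockout BMDM, and at 7.75 to 16.1 and 14.4 to 19.0 FPKM in the TAM groups. Its level over the whole gene therefore did not separate the genotypes, and cannot check the labels where only some exons are deleted. All 7 macrophage markers examined, among them Csf1r and Itgam, were at 1 FPKM or more in each of the 20 libraries.

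In BMDM without IL4, the Ear genes were close to or at 0 while Rnase4 was already high. With IL4, Ear11 went from under 1 FPKM to 15.1 to 29.1 FPKM at 10 h and 295 to 421 FPKM at 24 h over both genotypes. Ear2 stayed at or below 1.50 FPKM at 10 h and reached 49.8 to 75.8 FPKM at 24 h, and Ear10 reached 3.22 to 4.38 FPKM at 24 h only. Rnase4 rose once, by 10 h, and stayed there. A gene is called here when limma's adjusted p over the whole table was under 0.05. In wild-type cells 2 of the 5 members tested were called at 10 h, against 42.4% of all 10510 genes tested, and 5 of 5 at 24 h, against 50.0%. In labelled knockout cells 3 of 5 were called at 10 h, against 38.8%, and 4 of 5 at 24 h, against 43.7%. Since the family was chosen on these differences, nothing is read from those counts. The median change over all genes was 0.06 to 0.09 on the log2 scale in these 4 comparisons.

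**Figure D1:**
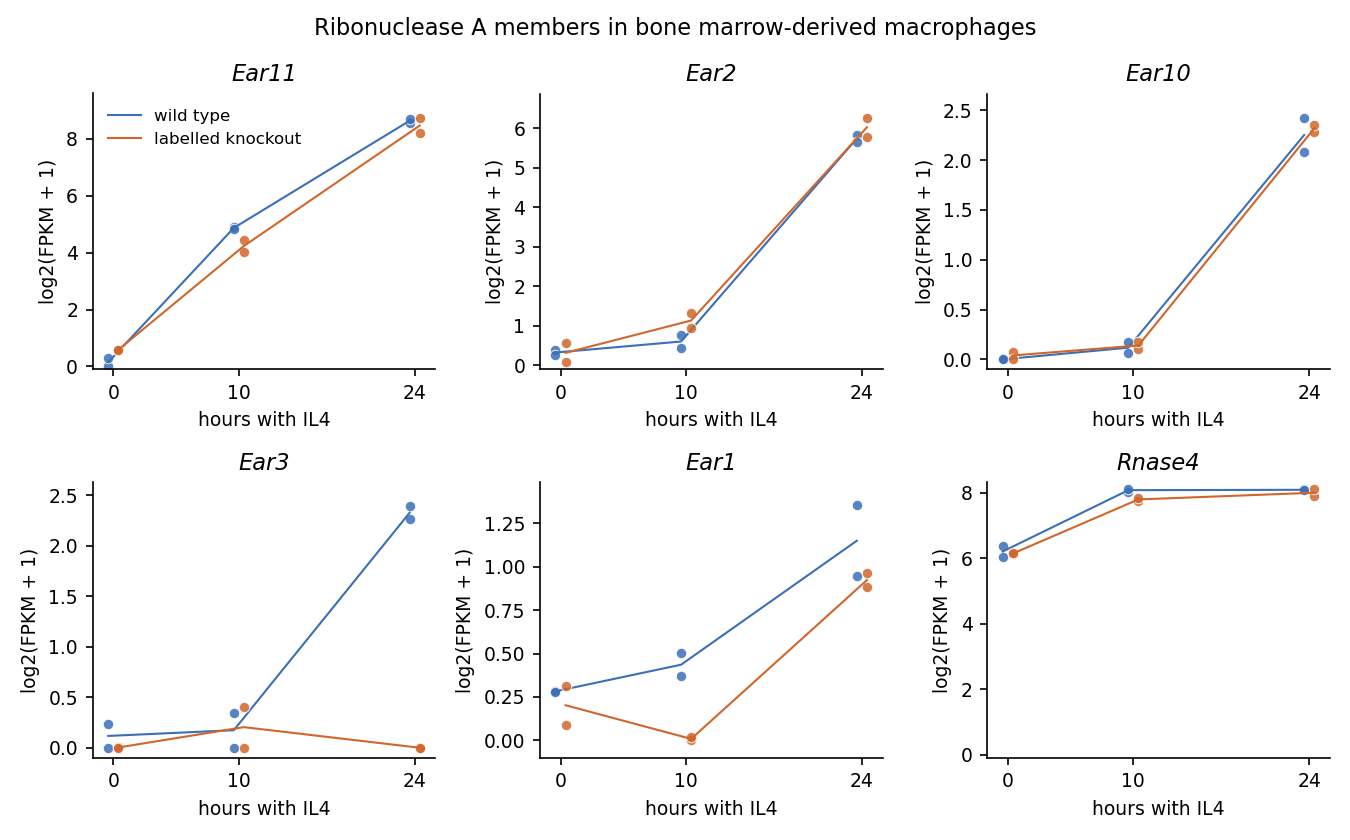
Each panel shows 1 gene, with hours of IL4 on the x axis, drawn to scale, and log2(FPKM + 1) on the y axis, whose range differs between panels. Each point is 1 library, lines join the means of 2 libraries, and points of the genotypes are set slightly apart sideways. Ear11 is already up at 10 h, Ear2 and Ear10 rise between 10 and 24 h in both genotypes, Ear3 rises at 24 h in wild-type cells, and Rnase4 starts high and is level from 10 h.

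Ear11 encodes a secreted ribonuclease known from type 2 inflammation of the lung and as a chemoattractant for macrophages. Its level in wild-type cells was 0 and 0.232 FPKM without IL4, 29.1 and 27.4 FPKM at 10 h, and 378 and 415 FPKM at 24 h. The replicates of a time lay close together and no times overlapped, though the share of all genes for which this holds was not computed. On the scale log2(FPKM + 1), used for all differences here, it differed from untreated cells by 4.72 ± 0.18 (SE, n = 2 per group) at 10 h and 8.48 ± 0.18 at 24 h. From 10 to 24 h its mean rose 14.1-fold. In wild-type cells Ear11 was the only Ear gene above 1 FPKM at 10 h.

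Ear2, also studied as an attractant of dendritic cells, followed a later course. It was at 0.300 and 0.208 FPKM without IL4, 0.714 and 0.348 FPKM at 10 h, and 55.7 and 49.8 FPKM at 24 h in wild-type cells. Its difference from untreated cells was 0.28 ± 0.20 at 10 h and 5.42 ± 0.20 at 24 h, and its mean rose 99.2-fold between those times. Thus nearly all of the Ear2 signal appeared after 10 h, when Ear11 already stood at 28.2 ± 1.18 FPKM (mean ± SD, n = 2).

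Ear10 had the time course of Ear2 at a lower level. In wild-type cells it was at 0 in both untreated libraries, 0.126 and 0.0454 FPKM at 10 h, and 4.38 and 3.22 FPKM at 24 h. The difference from untreated cells was 0.12 ± 0.12 at 10 h and 2.25 ± 0.12 at 24 h. Because a pseudocount of 1 FPKM compresses low values, these differences understate changes of genes as low as Ear10.

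Ear3 was at 0 and 0.176 FPKM in untreated wild-type cells, at 9.3e-05 and 0.272 FPKM at 10 h, and at 3.80 and 4.25 FPKM at 24 h. Its difference from untreated cells was 2.21 ± 0.16 at 24 h. Ear1 was the lowest of the 6 members in wild-type cells at 24 h, with 1.55 and 0.927 FPKM after 0.218 and 0.215 FPKM without IL4. It reached 1 FPKM in 1 of the 12 libraries and so was not among the genes tested. A value as small as 9.3e-05 FPKM can stand for a fraction of a read that a program has assigned to a gene. In BMDM, 5.0% of the non-zero values of Ear genes were under 0.01 FPKM (3 of 60), against 1.87% of the non-zero values of all genes. Levels of single Ear genes, above all Ear1, Ear3 and Ear10, are uncertain because reads can match several of them.

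Rnase4 encodes a ribonuclease with a broad tissue distribution. Its wild-type levels were 80.8 and 65.2 FPKM without IL4, 261 and 277 FPKM at 10 h, and 274 and 268 FPKM at 24 h. It differed from untreated cells by 1.87 ± 0.13 at 10 h and 1.88 ± 0.13 at 24 h, and its mean rose by a factor of only 1.01 between 10 and 24 h. Expressed as a ratio of means it was 3.68 times the untreated level at 10 h. The untreated and treated libraries did not overlap, though the share of all genes that separate in this way was not computed.

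The order of levels within the family changed with time. Without IL4, Rnase4 was at 73.0 ± 11.1 FPKM (mean ± SD, n = 2) in wild-type cells, while no Ear gene exceeded 0.300 FPKM in a library, and the ranges of Ear1, Ear2 and Ear11 overlapped. At 10 h Rnase4 still led, followed by Ear11, with the other 4 all under 1 FPKM. At 24 h Ear11 had the highest level, at 397 ± 26.1 FPKM, above Rnase4 at 271 ± 4.27 FPKM and Ear2 at 52.7 ± 4.18 FPKM, and the libraries of those 3 did not overlap. Ear3 and Ear10 overlapped, and Ear1 lay below both. In labelled knockout cells at 24 h the order of Ear11, Rnase4, Ear2 and Ear10 was the same, and Ear11 and Rnase4 again did not overlap. For scale, Arg1, the arginase gene used as a marker of IL4-treated macrophages, went from 1.20 to 173 and 1028 FPKM on average over the same times in wild-type cells.

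To allow for reads moved between similar genes, the FPKM of all 10 Ear rows of the table were also summed. The sum was 0.518 and 0.831 FPKM in untreated wild-type cells, 30.5 and 28.5 FPKM at 10 h, and 444 and 473 FPKM at 24 h. Ear11 made up 90.2% to 96.3% of it at 10 h in the 4 libraries of both genotypes and 83.3% to 87.7% at 24 h. Ear2 made up 1.22% to 8.93% at 10 h and 10.5% to 15.4% at 24 h. The sum was higher at each later time, as Ear11 alone was.

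**Figure D2:**
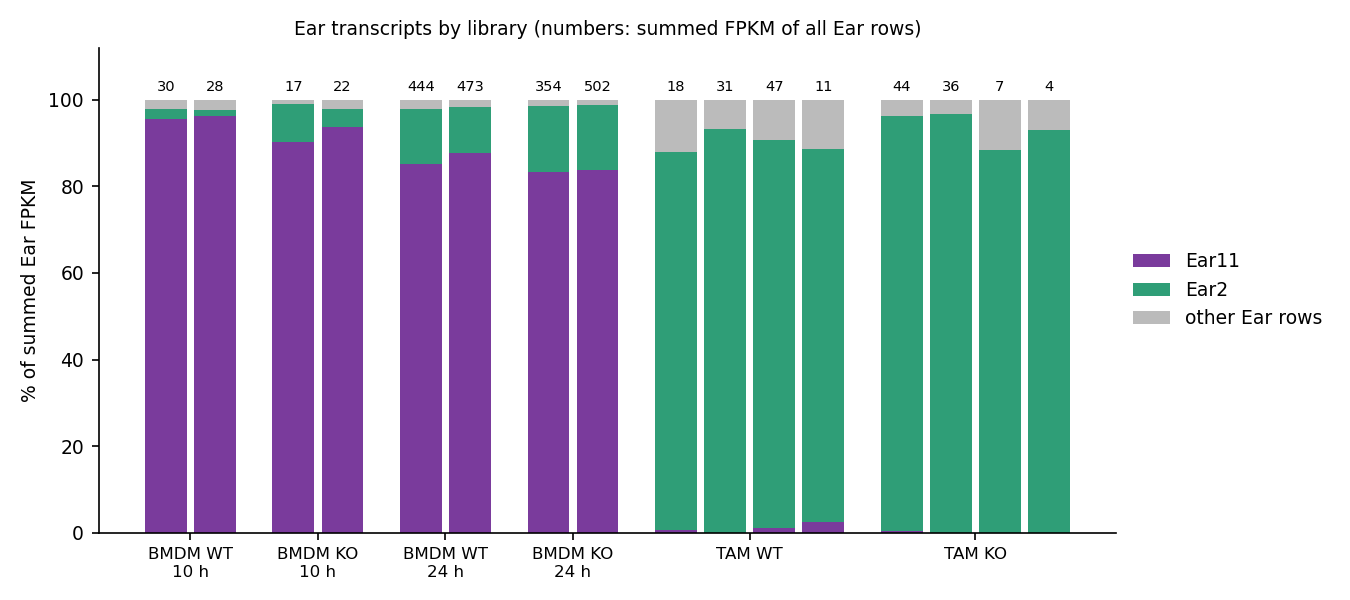
Bars show, for each library with IL4 in BMDM and each TAM library (in the order 1, 2, 7, 8 for wild type and 3, 4, 5, 6 for labelled knockout, KO), the percent of the summed FPKM of all Ear rows that falls on Ear11, Ear2 and the other Ear rows. The number over a bar is that sum in FPKM. Ear11 takes 83.3% to 96.3% in BMDM with IL4 and at most 2.57% in TAM, where Ear2 takes 86.1% to 96.6%.

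The other ribonuclease A genes of the list numbered 18 in the tables, of which 3 reached the level needed for testing in BMDM: Ang, Ang2 and Rnase6. All 3 rose with IL4 in wild-type cells at both times, at which 2965 (10 h) and 3120 (24 h) of all 10510 genes tested were called as higher. Ang, which encodes the vessel-inducing ribonuclease angiogenin, was at 13.6 and 8.68 FPKM without IL4, 43.3 and 45.1 FPKM at 10 h, and 37.3 and 40.0 FPKM at 24 h. It rose by 1.93 ± 0.17 at 10 h (limma, adjusted p = 1.19e-05) and 1.74 ± 0.17 at 24 h (limma, adjusted p = 1.67e-05), with 2 of 2 treated libraries above both untreated ones. Its course, level from 10 h on, was that of Rnase4, with which it shares the promoter window above, and the ratio of Rnase4 to Ang stayed between 5.63 and 8.16 over all 12 BMDM libraries.

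Ang2, a relative of Ang that lies between Rnase6 and Ear11, was at 0 in both untreated wild-type libraries, at a mean of 0.976 FPKM at 10 h and 3.45 ± 1.01 FPKM (SD, n = 2) at 24 h. It rose by 0.98 ± 0.20 at 10 h (limma, adjusted p = 0.00322) and 2.13 ± 0.20 at 24 h (limma, adjusted p = 1.51e-05). Ang2 entered the fit only through IL4-treated libraries, so nothing is read from its p-values for the rise. Rnase6, an antimicrobial ribonuclease of monocytes and macrophages, rose from 4.17 ± 1.71 FPKM to 20.3 ± 1.71 FPKM at 10 h and 30.6 ± 2.48 FPKM at 24 h. Its rise was 2.08 ± 0.19 at 10 h (limma, adjusted p = 1.66e-05) and 2.65 ± 0.19 at 24 h (limma, adjusted p = 1.95e-06). Rnh1 encodes the cytosolic inhibitor that binds ribonucleases of this family. Its difference was 0.10 ± 0.15 at 10 h, which did not pass (limma, adjusted p = 0.642) and turned to -0.31 ± 0.10 under quantile normalization, where it passed (limma, adjusted p = 0.0314). At 24 h it rose by 0.95 ± 0.15 (limma, adjusted p = 0.000533), from 146 and 119 FPKM to 219 and 297 FPKM.

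**Figure D3:**
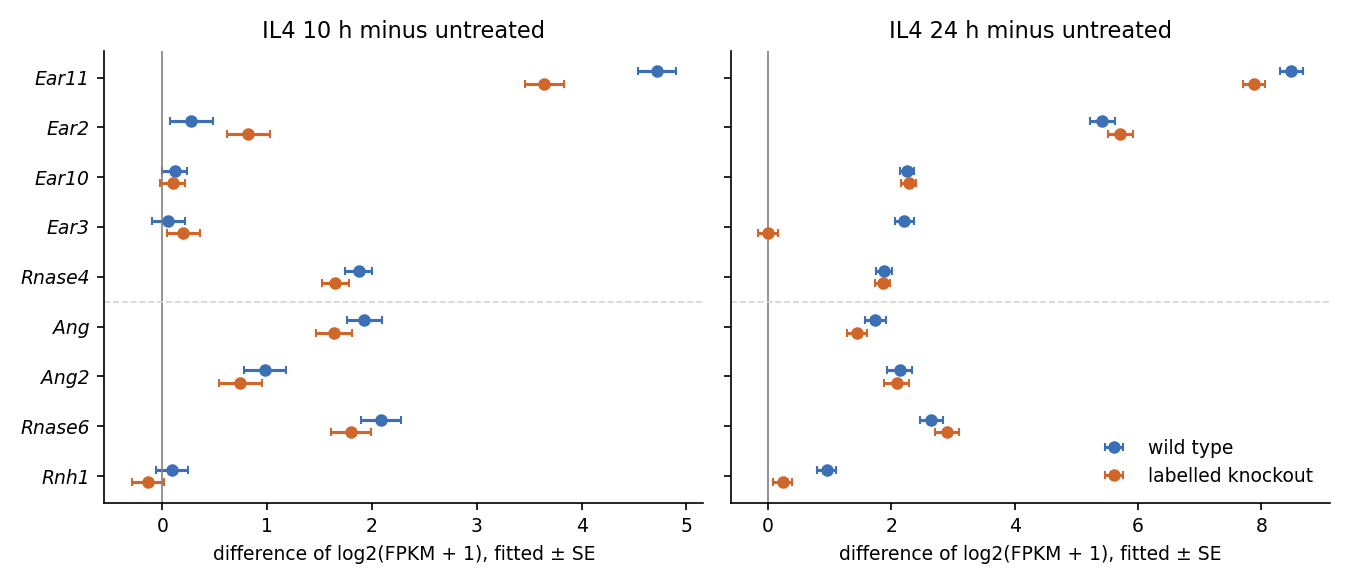
Points give the fitted difference of log2(FPKM + 1) between IL4-treated and untreated BMDM at 10 h (left) and 24 h (right), with bars of 1 SE, for each genotype (12 libraries in 1 fit, 2 per group). The members stand above the dashed line and other genes of the list below it. At 10 h Ear11 stands far to the right of the rest, whereas at 24 h Ear2 has joined it and Ear3 lies near 0 in labelled knockout cells alone.

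The labelled knockout cells showed the same sequence of times for Ear11, Ear2, Ear10 and Rnase4. Ear11 was at 0.511 and 0.493 FPKM without IL4, 15.1 and 20.9 FPKM at 10 h, and 295 and 421 FPKM at 24 h. Ear2 was at 0.472 and 0.0542 FPKM, then 1.50 and 0.931 FPKM, then 54.4 and 75.8 FPKM. Ear10 was at 0.0562 and 0 FPKM, then 0.0722 and 0.131 FPKM, then 3.88 and 4.10 FPKM. These levels rose late for Ear2 and Ear10, whose means increased 53.6-fold and 39.2-fold from 10 to 24 h, and less steeply for Ear11, at 19.9-fold. Rnase4 was at 68.7 and 70.1 FPKM, then 213 and 228 FPKM, then 235 and 275 FPKM. Ang, Ang2 and Rnase6 rose in these cells too, at both times. At 24 h the rises were 1.44 ± 0.17 for Ang, 2.09 ± 0.20 for Ang2 and 2.90 ± 0.19 for Rnase6 (limma, adjusted p = 6.44e-05, 1.73e-05 and 9.94e-07). As in wild-type cells, nothing is read from the p-values of Ang2, which entered the fit only through IL4-treated libraries. The rise of Ang2 at 10 h, 0.75 ± 0.20 (limma, adjusted p = 0.0146), did not pass without replicate 2 of the untreated or of the 10 h labelled knockout cells (limma, adjusted p = 0.103 and 0.130).

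The genotypes were then set directly against each other at each time. In untreated cells 0 of 5 were called, against 2.70% of all genes, and at 10 h 0 of 5, against 2.84%. At 24 h 1 of 5 was called, Ear3, against 7.43% of all genes, and 1 of 5, again Ear3, for the difference of the 24 h response between genotypes, against 0.295%. Ear3 entered the fit only through the 2 wild-type 24 h libraries in which it was high, so nothing is read from its calls. The genotype comparison at each time uses libraries that also enter the IL4 comparisons.

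At 10 h, Ear11 was lower in both labelled knockout libraries than in both wild-type ones, by 0.64 ± 0.18, with mean levels of 18.0 and 28.2 FPKM. Rnase4 was also lower in both, by 0.28 ± 0.13, with means of 221 and 269 FPKM. Ear2 went the other way, higher in both labelled knockout libraries by 0.53 ± 0.20, with means of 1.22 and 0.531 FPKM. The groups overlapped for Ear3 and Ear10. Ear1, not among the genes tested, was lower in both, with means of 0.00624 and 0.354 FPKM. With 2 libraries a group such a separation is common, since 22.9% of all genes tested had both labelled knockout libraries below both wild-type ones at this time. At 24 h the groups overlapped for Ear11, whose difference was -0.17 ± 0.18, and turned to 0.09 ± 0.19 without labelled knockout replicate 1. They overlapped as well for Ear2 (0.28 ± 0.20), Ear10 (0.07 ± 0.12) and Rnase4 (-0.09 ± 0.13). The difference of the 24 h response between genotypes was -0.61 ± 0.26 for Ear11, 0.29 ± 0.29 for Ear2, 0.03 ± 0.17 for Ear10 and -0.03 ± 0.18 for Rnase4.

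In labelled knockout cells Ear3 was at 0.00328 and 0 FPKM without IL4, at 0 and 0.327 FPKM at 10 h, and listed at 0 in both libraries at 24 h, where the wild-type libraries were at 3.80 and 4.25 FPKM. The genotypes differed at 24 h by -2.33 ± 0.16, and the 24 h response differed by -2.21 ± 0.22. With a pseudocount of 0.1 FPKM the latter was -4.66 ± 1.16 and was no longer called. Without either wild-type 24 h library Ear3 no longer reached the level needed for testing, so those calls rest on both libraries. In the same labelled knockout libraries Ear2 was at 54.4 and 75.8 FPKM, and the summed Ear rows at 354 and 502 FPKM overlapped the wild-type sums of 444 and 473 FPKM, with a difference of -0.12 ± 0.18. Ear3, at 3.80 and 4.25 FPKM, was a small part of those wild-type sums. The sums therefore cannot show whether Ear3 reads went to other Ear rows. How reads were divided among similar genes can set a value at exactly 0, and its part in the Ear3 difference was not tested. Summed fibroblast markers were at 9.15 to 22.6 FPKM in labelled knockout and 2.37 to 4.90 FPKM in wild-type BMDM over all times. Summed markers of neutrophils and their precursors were at 138 and 132 FPKM in wild-type and 55.4 and 91.6 FPKM in labelled knockout cells at 24 h. The part of either marker group in the genotype differences was not tested.

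None of Ang, Ang2, Rnase6 and Rnh1 passed between genotypes at 0, 10 or 24 h, nor in the difference of the 24 h response. For Rnh1 the genotype difference was 0.45 ± 0.15 in untreated cells (limma, adjusted p = 0.203) and -0.27 ± 0.15 at 24 h (limma, adjusted p = 0.306). Its levels at 24 h were 219 and 297 FPKM in wild-type and 217 and 206 FPKM in labelled knockout cells. The 24 h response of Rnh1 differed between genotypes by -0.71 ± 0.22, which did not pass (limma, adjusted p = 0.154). It passed without replicate 1 of the untreated wild-type cells, at -0.86 ± 0.21 (limma, adjusted p = 0.0364), and without replicate 1 of the 24 h wild-type cells, at -0.93 ± 0.18 (limma, adjusted p = 0.0477). The difference in untreated cells also passed without the first of these libraries, at 0.59 ± 0.16 (limma, adjusted p = 0.0472).

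Eosinophils, in which the Ear products were first studied, express Prg2 and Epx, the genes of major basic protein and eosinophil peroxidase. In BMDM these were at 0 to 0.650 and 0 to 0.0421 FPKM, and the 6 eosinophil markers in the table summed to 0.927 to 3.21 FPKM over all 12 libraries. With IL4 at 24 h the sum was 1.25 and 1.72 FPKM in wild-type and 2.66 and 3.21 FPKM in labelled knockout cells, beside summed Ear levels of 354 to 502 FPKM. Of 6 alveolar macrophage markers only Itgax, the gene of CD11c, reached 1 FPKM, and it did so in each IL4-treated library, at 63.6 to 78.6 FPKM at 24 h.

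In TAM the family looked different. Ear2 was by far the main Ear gene, Ear11 was near 0, and Rnase4 was high. Of the 6 members 2, Ear2 and Rnase4, reached the level needed for testing (1 FPKM in at least 4 libraries). Between genotypes 0 of 2 were called, against 0.101% of the 9897 genes tested. In bulk samples such as these, fewer cells of a type and less RNA per cell cannot be told apart.

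Ear2 varied about as widely within a genotype as it did over all TAM libraries. It was at 15.4, 28.5, 42.1 and 9.38 FPKM in wild-type libraries 1, 2, 7 and 8, and at 42.1, 34.8, 6.33 and 3.82 FPKM in labelled knockout libraries 3, 4, 5 and 6. Libraries 3 and 4 were high and 5 and 6 low, and the groups overlapped through most of their range. The difference was -0.50 ± 0.77 (SE, n = 4 per group) and turned to 0.06 ± 0.72 without library 6. Ear10 ordered the libraries much as Ear2 did, with 1.13 and 1.05 FPKM in libraries 3 and 7, where Ear2 was highest, and 0 and 0.0359 FPKM in libraries 5 and 6, where it was lowest. Whether reads of Ear2 entered the Ear10 values was not tested.

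Ear11 was at 0.109, 0, 0.542 and 0.280 FPKM in wild-type libraries 1, 2, 7 and 8, and at 0.137 FPKM in labelled knockout library 3 and 0 in the other three. Ear11 thus made up at most 2.57% of the summed Ear FPKM of a TAM library, against 83.3% or more in BMDM with IL4, while Ear2 made up 86.1% to 96.6%. These are shares within a library, though the tables come from different library preparations. Ear1 was at most 0.277 FPKM and Ear3 at most 0.128 FPKM in any TAM library. The summed Ear rows were at 4.12 to 47.0 FPKM, and differed by -0.57 ± 0.76 between genotypes.

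Rnase4 was lower in the labelled knockout TAM. It was at 153, 94.8, 93.8 and 194 FPKM in wild-type libraries 1, 2, 7 and 8, and at 43.3, 50.8, 81.5 and 76.3 FPKM in labelled knockout libraries 3 to 6. Each labelled knockout library lay below each wild-type library, as did 3.27% of all genes tested in TAM. The group means were 134 ± 48.8 and 63.0 ± 18.7 FPKM (SD, n = 4 each), a difference of -1.06 ± 0.30. Leaving out 1 library at a time kept this between -1.20 and -0.85, the latter without wild-type library 8. That library had the highest Rnase4 level and also a sum of fibroblast markers of 235 FPKM, against 21.8 to 26.8 FPKM in the other wild-type and 8.93 to 27.6 FPKM in the labelled knockout libraries. The 7 macrophage markers summed to 4745 to 7178 FPKM in wild-type and 2341 to 4221 FPKM in labelled knockout TAM, so that they separated the groups as Rnase4 did. These markers include Lyz2, the gene into which LysM-Cre is inserted, and only the labelled knockout hosts carried LysM-Cre. The part of Lyz2 in the macrophage sums was not tested. The part of either marker group in the Rnase4 difference was not tested.

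**Figure D4:**
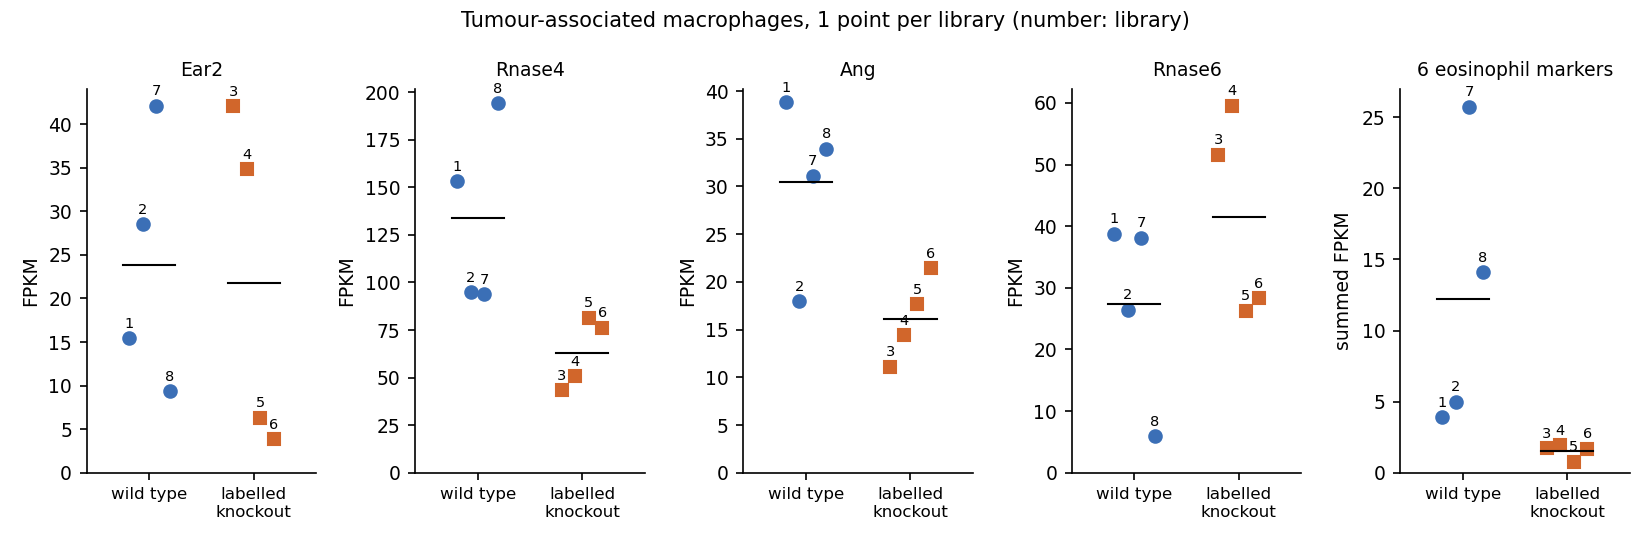
Each point is 1 TAM library, labelled with its number, with the genotype on the x axis and FPKM on the y axis (the last panel sums 6 eosinophil markers), and the line is the mean of 4 libraries. Ear2 spreads over overlapping ranges in the groups, Rnase4 is lower in each labelled knockout library than in any wild-type library, and the eosinophil markers are highest in wild-type libraries 7 and 8.

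Ang and Rnase6 were the other ribonuclease genes that reached the level needed for testing in TAM. Ang was at 38.8, 18.0, 31.1 and 34.0 FPKM in the wild-type and 11.1, 14.4, 17.7 and 21.4 FPKM in the labelled knockout libraries, with wild-type library 2 among the labelled knockout values. Its difference of -0.86 ± 0.27 had the sign of that of Rnase4 but did not pass (limma, adjusted p = 0.194). The ratio of Rnase4 to Ang was 3.01 to 5.71. Rnase6 was at 27.3 ± 15.3 and 41.4 ± 16.7 FPKM (SD, n = 4 each), a difference of 0.77 ± 0.56 that did not pass (limma, adjusted p = 0.495). Rnh1 differed by 0.32 ± 0.27 (limma, adjusted p = 0.550).

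The eosinophil markers did not follow Ear2 across the TAM libraries. Epx was at 0 in all 8. The 6 markers summed to 3.91, 4.99, 25.7 and 14.1 FPKM in wild-type libraries 1, 2, 7 and 8 and to 0.786 to 1.96 FPKM in the labelled knockout libraries. Library 7 and labelled knockout library 3 had the same Ear2 level, 42.1 FPKM, with Prg2 at 10.1 and 0.194 FPKM. Ear6, an Ear gene named here after its values were seen, was at 0.784 to 3.20 FPKM in wild-type and 0 to 0.839 FPKM in labelled knockout libraries, with the highest value in library 7. The sort took cells with both CD11b and F4/80, and neutrophils also carry CD11b. Whether it left out all other cells was not tested. Neutrophil markers summed to 8470, 18826, 1446 and 1109 FPKM in wild-type libraries 1, 2, 7 and 8. In labelled knockout libraries 3, 4, 5 and 6 the sums were 6905, 5850, 1619 and 1176 FPKM. Like Ear2 they were higher in libraries 3 and 4 than in 5 and 6, but unlike Ear2 they were low in library 7. Over both genotypes the sums were 5850 FPKM or more in libraries 1 to 4 and 1619 FPKM or less in libraries 5 to 8. Mgl2, an IL4 reference gene, was at 0.505 to 0.993 FPKM in the first set and 4.99 to 32.0 FPKM in the second. In labelled knockout TAM, Rnase4 was lower in libraries 3 and 4 than in 5 and 6. Among wild-type libraries neither Ear2 nor Rnase4 was split by number. What set the libraries apart was not tested. The part of eosinophils and neutrophils in the Ear2 and Ear6 levels was not tested.

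Genes outside the family with the most similar patterns were found by Pearson's r of log2(FPKM + 1) over the libraries of a table, given as a description since libraries of a group share their treatment. Over the 12 BMDM libraries, Ear11 was closest to Itgax (r = 0.998), Dhrs9 (0.994) and Lrrc32 (0.993). Itgax rose in the same 2 steps, at 0.150 to 0.367 FPKM without IL4, 7.13 to 11.1 FPKM at 10 h and 63.6 to 78.6 FPKM at 24 h. Ear2 was closest to Ccl22 (0.995), the gene of a chemokine made by IL4-treated macrophages, then Mmp12 (0.992), which encodes macrophage elastase, and Ddx4 (0.992). Ear10 was closest to the same genes, Mmp12 (0.996), Ccl22 (0.987) and Ddx4 (0.987). Rnase4 was closest to Socs2 (0.995), Egr2 (0.995) and Scimp (0.994), all with the early rise seen for Rnase4. Ear3 had less similar neighbours among the genes not skipped, Slc9a3r2 (0.933), Fzd1 (0.917) and Rgcc (0.904). For Ear3, 2 skipped genes had a higher r than Rgcc.

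Over the 8 TAM libraries the closest genes differed from those in BMDM. Rnase4 was closest to Sepp1 (r = 0.989), which encodes selenoprotein P, then Trem2 (0.977), a lipid-sensing receptor of macrophages, and Lancl1 (0.976). Sepp1 ranged from 196 to 1329 FPKM and Trem2 from 13.9 to 111 FPKM. Ear2 was closest to Parl (0.975), Pitpna (0.968) and Scnm1 (0.964), genes whose levels varied far less than its own, Parl from 19.9 to 30.5 FPKM. Itgax, closest to Ear11 in BMDM, was at 14.3 to 104 FPKM in wild-type and 140 to 255 FPKM in labelled knockout TAM, in which Ear11 was at or near 0.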

How the data were processed

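The authors deposited 2 tables of FPKM values. The submitters' processing notes name TopHat, Cuffdiff and the build mm9. Versions, annotation and strand setting are not given in the sources used here. The TAM table does not name its unit, and FPKM was taken from those notes. Depth is unknown, so no counting intervals are given. Where 2 rows shared a symbol, the higher was kept.

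Fits used limma 3.58.1 (R 4.3.3, eBayes with trend) on log2(FPKM + 1), after keeping genes with 1 FPKM in at least 2 BMDM or 4 TAM libraries. One fit covered all 12 BMDM libraries in 6 groups, and another the 8 TAM libraries in 2 groups. Benjamini-Hochberg adjusted p-values (whole table, threshold 0.05) are printed only for genes outside the 6 members. The members and gene lists were chosen with earlier results of these data known. Named genes were the 6 members, other ribonuclease A genes reaching the filter with Rnh1, the 3 genes most like each member, and IL4 reference genes. Numbered gene models and small RNA genes were skipped when those 3 were chosen. The fit was tested on simulated data. The labels do not say that each TAM library came from a separate mouse. The TAM p-values set a difference against the spread between these libraries, moderated by limma over all genes. That spread may be technical. Promoters came from RefSeq (GRCm38.p6) and were aligned with Biopython 1.88. Alternatives were another pseudocount, other filters and scalings, summed Ear rows, a replicate block, fewer libraries and leaving out each library.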

Additional observations from a re-analysis of the deposited data

Results flagged for a closer look

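In TAM, 20 groups of 4 libraries were examined for a library standing apart. The rule marks about 1 in 20 groups of normally distributed values. It always marks a group in which all libraries but 1 are at 0, so that rate does not hold for genes this low. Ear1 was at 0.246 FPKM in labelled knockout library 4 and at 0 in the other three. Ear11 was at 0.137 FPKM in labelled knockout library 3 and at 0 in the other three. Ear3 was at 0.00722 FPKM in labelled knockout library 3 and at 0 in the other three, and at 0.128 FPKM in wild-type library 2 with at most 0.00958 FPKM in the others. All 4 of these values are under 1 FPKM.

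In BMDM, the 24 h response of Ear3 to IL4 differed between genotypes by -2.21 ± 0.22 on the log2 scale. The following differences of means pointed opposite ways in every library. They were not tested, apart from that of Rnh1 between untreated and 24 h cells, which did not pass as a difference of responses (limma, adjusted p = 0.154). The share of all genes with such opposite differences was not computed, so nothing is read from them. At 10 h alone, 22.9% of all genes tested had both labelled knockout libraries below both wild-type ones. The Ear1 values, and those of Ear11 without IL4, were all under 1 FPKM. Ear1 rose by 0.138 FPKM in wild-type cells at 10 h and changed by -0.148 FPKM in labelled knockout cells. Labelled knockout minus wild type was 0.386 FPKM for Ear11 without IL4 and -10.2 FPKM at 10 h. For Rnase6 it was -3.59 FPKM at 10 h and 6.61 FPKM at 24 h. For Rnh1 it was 47.5 FPKM without IL4 and 22.2 FPKM at 10 h, against -46.3 FPKM at 24 h.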

How the results depend on the processing

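The number of members called stayed within 1.5 times its value in 94 of the recomputed counts and moved further in 11. When 1 FPKM was required in every library, Rnase4 alone was left to test in BMDM, and 1 member was called in each of the 4 IL4 comparisons and 0 between genotypes at 24 h and in the difference of responses. With a pseudocount of 0.1 FPKM the difference of responses had 0 calls, though that of Ear3 lay between -4.66 and -2.10 over the alternatives in which Ear3 was tested as a row of its own. Leaving out 1 library gave 0 to 1 calls for the genotypes at 24 h and for the difference of responses (0 without either wild-type 24 h library, when Ear3 missed the filter), 2 to 2 and 4 to 5 for wild-type cells at 10 and 24 h, and 2 to 3 and 4 to 4 for labelled knockout cells. Under quantile normalization the 10 h difference of Rnh1 in wild-type cells was -0.31 in place of 0.10 and passed. The cause of these changes was not tested, apart from the fewer genes or libraries named.

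Replicate numbers did not pair the BMDM samples: deviations of same-numbered replicates correlated at -0.141 to 0.149 over 15 pairs of groups, above 0.1 in 5. With the replicate block, 2 and 5 members were called in wild-type and 3 and 4 in labelled knockout cells at 10 and 24 h, 0, 0 and 1 between genotypes at 0, 10 and 24 h, and 1 for the difference of responses, the same counts as without it. TAM groups share no number. Low values limit Ear1, Ear3 and Ear10 most, since 1 read cannot be told from none at an unknown depth.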
